A study of Sus scrofa with 12 samples.

Results

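MMP7 and MMP9, a pair of secreted matrix metalloproteinases, were followed across 12 libraries of porcine oviduct epithelial cells measured by bulk 3′ mRNA sequencing. They are 2 of the 30461 gene rows of the deposited table, found by their symbols (MMP7, ENSSSCG00025055114; MMP9, ENSSSCG00025068399). Both were chosen for how far spheroids stood above fresh cells in these same libraries, so every value of theirs against fresh cells is a description and carries no test. The table held 17 further rows of the family, 14 other MMP genes and 3 TIMP genes, which were set beside them.

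There were 3 groups of 4 libraries. Fresh cells were epithelial cells scraped from the oviduct as single cells. DMEM/F12 spheroids were cell clusters formed in DMEM/F12, a standard basal medium, and their library names carry FBS. Incubation medium spheroids were formed in Incubation Medium, as the labels name it, with Diff in their library names; the composition of neither medium is given. The labels name no animals, ages, cycle stages or culture times for any group.

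Matrix metalloproteinases are zinc enzymes that cut matrix and cell surface proteins. Most are secreted as inactive proenzymes, are switched on by removal of a propeptide, and are blocked by the tissue inhibitors of metalloproteinases (TIMPs). MMP7, or matrilysin, lacks the hemopexin domain of most family members and is known as an enzyme of glandular epithelium that can shed surface proteins such as E-cadherin. MMP9, or gelatinase B, cuts gelatin and basement membrane collagen and is made by neutrophils, macrophages and activated epithelium.

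Library totals ranged from 5045187 to 6026881 counts in fresh cells and from 7583552 to 8603774 in spheroids. All levels below are counts per 1e+06 (CPM) on library sizes scaled for composition. The epithelial markers EPCAM, KRT8, KRT18 and CLDN4 were present in every group, with summed levels of 3331 to 3989 CPM in fresh cells, 4814 to 6040 CPM in DMEM/F12 spheroids and 3467 to 5594 CPM in incubation medium spheroids. They did not move together. In the same order of groups the means were 904, 628 and 715 CPM for EPCAM and 1656, 2720 and 1011 CPM for CLDN4. They were 832, 1450 and 1812 CPM for KRT8 and 242, 425 and 719 CPM for KRT18. A further KRT8 row in the sum was at or under 3 counts in every fresh cell library. Markers of multiciliated cells summed to 942 to 1061 CPM in fresh cells, 112 to 284 CPM in DMEM/F12 and 103 to 198 CPM in incubation medium. Markers of oviduct secretory cells summed to 18938 to 29977 CPM in fresh cells, 984 to 2015 CPM in DMEM/F12 and 963 to 2010 CPM in incubation medium. Of the 3 secretory rows OVGP1 and SLPI fell in both media, while MUC1 rose from 159 CPM to 545 and 474 (adjusted p = 9.85e-10 and 2.62e-09, edgeR). In bulk samples, fewer cells of a type and less RNA per cell cannot be told apart. The part of these shifts in the results on MMP7 and MMP9 was not tested.

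MMP7 was at 6.09, 7.71, 8.41 and 5.68 CPM in fresh cell replicates 1 to 4, from 29 to 45 counts a library. In DMEM/F12 spheroids it was at 3621, 3799, 5311 and 2607 CPM. In incubation medium spheroids it was at 784, 983, 1793 and 781 CPM. The order of the groups was therefore fresh cells, incubation medium and DMEM/F12 from low to high, and no library of 1 group reached into another. Groups did not overlap for 65.4% of all tested genes between DMEM/F12 and fresh cells, for 64.9% between incubation medium and fresh cells and for 26.9% between the media. Pooled over the libraries, 124330 counts in DMEM/F12 spheroids against 152 in fresh cells gave a ratio of 544 (95% interval 464 to 642, counting error only). For incubation medium the pooled ratio was 156 (133 to 185). MMP7 counts were fractional in 3 of the 4 DMEM/F12 libraries.

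MMP9 was close to the limit of detection in fresh cells, with 4, 2, 1 and 3 counts in replicates 1 to 4. These are 0.696, 0.359, 0.187 and 0.588 CPM. Only replicate 1 was above a floor of 3 counts, about the upper 95% limit for 0 observed counts. In DMEM/F12 spheroids MMP9 was at 154, 164, 136 and 49.2 CPM, replicate 4 being the low one. In incubation medium spheroids it was at 51.7, 114, 73.8 and 27.7 CPM, and replicate 4 was again the lowest. Unlike MMP7, the spheroid groups overlapped, since replicates 1, 2 and 3 in incubation medium were above replicate 4 in DMEM/F12. The pooled ratio to fresh cells was 274 for DMEM/F12 (95% interval 149 to 572, counting error only) and 145 for incubation medium (78.7 to 303). The fresh cell side of these ratios is 10 counts in all.

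**Figure D1:**
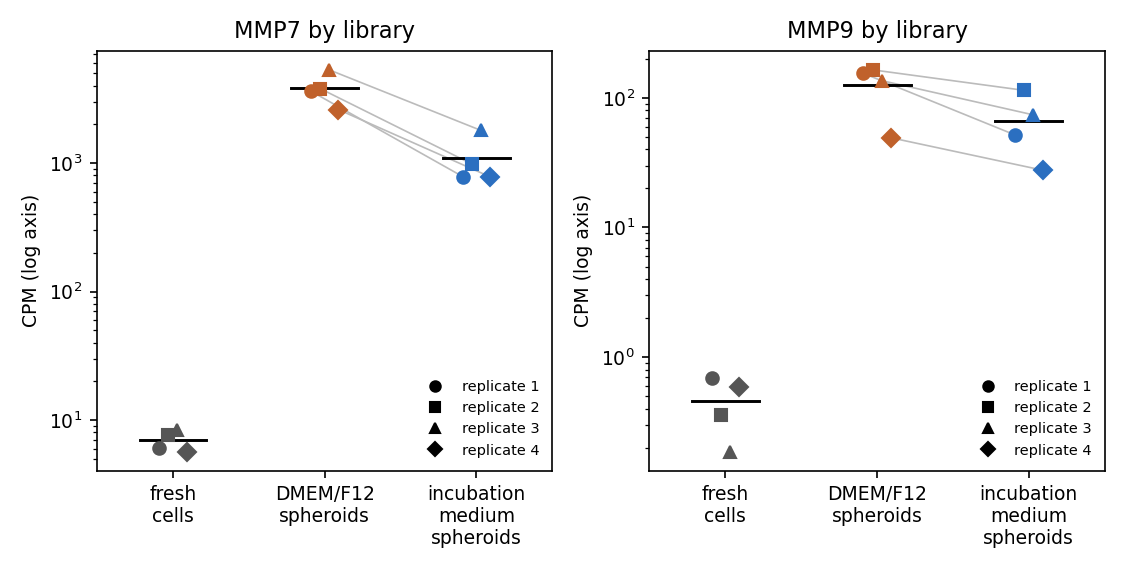
CPM of MMP7 (left) and MMP9 (right) on log axes in 12 libraries; each symbol is a library, the shape gives the replicate number, black bars are group means and grey lines join spheroid libraries of the same number. MMP7 runs from 2607 to 5311 CPM in DMEM/F12 and from 781 to 1793 CPM in incubation medium without overlap, while the MMP9 groups overlap and every grey line falls in both panels.

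Libraries of 1 group differed among themselves in both genes. Among DMEM/F12 libraries the highest MMP7 level was 2.04 times the lowest, and among incubation medium libraries 2.30 times. For MMP9 the same ratios were 3.34 and 4.12. Replicate 3 had the highest MMP7 level in each of the 3 groups, and replicate 4 the lowest. MMP9 was highest in replicate 2 and lowest in replicate 4 in both spheroid groups. Spheroid libraries with the same replicate number deviated from their group means together across genes (r 0.394 to 0.516 between the media), so a fit with the replicate number as a block is given where it changes a call.

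The comparison of the media was not the one the genes were chosen on, although it rests on the same spheroid libraries. MMP7 was lower in incubation medium than in DMEM/F12, at 1085 ± 481 against 3835 ± 1116 CPM (mean ± SD, n = 4 each). The log2 fold change was -1.82 (SE 0.26, 95% interval -2.37 to -1.27, adjusted p = 0.000188, edgeR's quasi-likelihood test with Benjamini-Hochberg adjustment). Within replicate numbers 1 to 4 MMP7 was 4.62, 3.87, 2.96 and 3.34 times lower, so 4 of 4 numbers had the same direction. A two-sided exact permutation test of the log2 CPM gave p = 0.0286 (n = 4 each), the smallest that 4 against 4 can give. After adjustment over the 5 permutation tests made on these genes the exact permutation p was 0.143.

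MMP9 was at 66.8 ± 36.7 CPM in incubation medium and 126 ± 52.5 CPM in DMEM/F12 (n = 4 each), a difference that did not pass the test. Its log2 fold change was -0.91 (SE 0.37, 95% interval -1.71 to -0.12, adjusted p = 0.0878, edgeR), and the exact permutation p was 0.2 (0.25 adjusted). With the replicate number as a block, MMP9 was called lower in incubation medium (log2 fold change -0.95, adjusted p = 0.000174, edgeR). Within numbers 1 to 4 it was 2.99, 1.44, 1.84 and 1.78 times lower, again in 4 of 4. Without DMEM/F12 replicate 4 it was also called (-1.18, adjusted p = 0.0170, edgeR), as it was without incubation medium replicate 2 (-1.30, adjusted p = 0.0238). Over the 18 alternatives its adjusted p ranged from 0.000174 to 0.208.

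The response of both genes to the medium was compared as the ratio of MMP7 to MMP9 within each library, a measure chosen after the values were seen. On the log2 scale the ratio was 5.02 ± 0.58 in DMEM/F12 and 4.11 ± 0.77 in incubation medium (n = 4 each). It was lower in incubation medium in 4 of 4 replicate numbers, with differences of -1.43 to -0.63. The groups overlapped and the exact permutation p was 0.171 (0.25 adjusted), so an unequal change between the media did not pass this test. The test ignores the replicate numbers, so it does not decide whether MMP7 and MMP9 changed unequally within them. The same-number differences had a mean of -0.92 and an SD of 0.36. A sign-flip test over the 4 numbers could not go below 0.125.

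TIMP1 is a secreted inhibitor that binds active metalloproteinases and also proMMP9. The log2 ratio of MMP7 to TIMP1 was -4.55, -4.0, -3.88 and -4.25 in fresh cell replicates 1 to 4. It was 1.67, 2.51, 3.11 and 1.90 in DMEM/F12 spheroids, and 0.91, 1.59, 2.57 and 1.01 in incubation medium spheroids. Every spheroid library was thus above every fresh cell library, and the media overlapped. Between the media the log2 ratio differed by -0.78 (exact permutation p = 0.171, 0.25 adjusted, n = 4 each) and was lower in 4 of 4 replicate numbers. Its same-number differences had an SD of 0.17, and the permutation test ignores the numbers. The log2 ratio of MMP9 to TIMP1 differed by 0.14 (exact permutation p = 0.83), with same-number differences from -0.13 to 0.51. Both ratios to TIMP1 were also chosen after the values were seen.

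**Figure D2:**
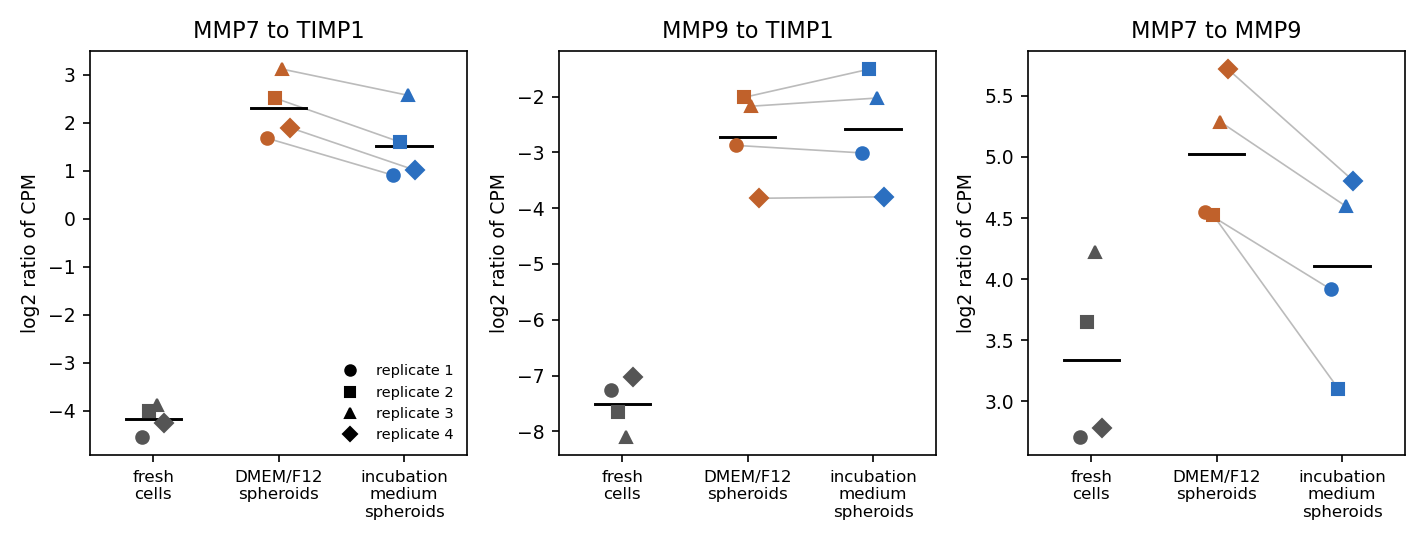
Log2 ratios of CPM within each of the 12 libraries for MMP7 to TIMP1, MMP9 to TIMP1 and MMP7 to MMP9; shapes give the replicate number, bars the group means, and grey lines join spheroid libraries of the same number. All 4 lines fall from DMEM/F12 to incubation medium for MMP7 to TIMP1 and for MMP7 to MMP9, and 1 of 4 falls for MMP9 to TIMP1; ratios with MMP9 in fresh cells rest on 1 to 4 counts.

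Of the 17 further family rows, 10 passed the filter on low counts. In DMEM/F12 against fresh cells 7 were called higher, where 35.1% of all 14070 tested genes were, and 2 lower, where 35.7% were; calls in either direction made up 70.7% of all genes. In incubation medium against fresh cells 6 were called higher and 3 lower, where 35.8% and 35.8% of all genes were, 71.7% in either direction. Between the media 7 of 10 were called, all 7 lower in incubation medium. Of all genes 25.0% were called there, 12.7% higher and 12.3% lower. Higher calls were 50.9% of all calls between the media, and 33.4% with library totals in place of scaled library sizes, where the median of all genes moved by -0.09 on the log2 scale. The median log2 fold change of the 10 rows was 1.32, 0.67 and -0.86 in the 3 comparisons, against -0.01, -0.01 and 0.00 over all tested genes. Both counts of higher calls over fresh cells, and these medians, include MMP12. It was at or under 3 counts in every fresh cell library and passed the filter through spheroids alone. Its place among the higher rows therefore follows in part from the filter. Both comparisons with fresh cells share the fresh cell libraries.

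MMP2, or gelatinase A, is the closest relative of MMP9 in substrate use. It was at 20.7, 31.4, 22.3 and 20.2 CPM in fresh cells, 20.8, 24.0, 22.9 and 12.5 CPM in DMEM/F12 spheroids and 6.32, 9.08, 10.6 and 5.51 CPM in incubation medium spheroids. Fresh cells and DMEM/F12 overlapped (log2 fold change -0.24, 95% interval -0.72 to 0.24, adjusted p = 0.356, edgeR), and the incubation medium libraries were all below both. In incubation medium MMP2 fell by 1.58 on the log2 scale against fresh cells (SE 0.24, adjusted p = 4.03e-05, edgeR) and by 1.35 against DMEM/F12 (SE 0.24, adjusted p = 0.00102). MMP2 is widely made by stromal cells. Of 9 listed markers of stroma and smooth muscle 6 had a row, and they summed to 60.2 to 94.9 CPM in fresh cells, 12.7 to 35.5 CPM in DMEM/F12 and 7.26 to 13.0 CPM in incubation medium, with DES at or under 3 counts in every library. In DMEM/F12 2 of 5 tested were called lower, COL1A2 and COL3A1, where 35.7% of all genes were. COL1A1, ACTA2 and PDGFRA were not called there (adjusted p = 0.320, 0.546 and 0.129, edgeR), and PDGFRA went from 1.11 to 1.76 CPM. In incubation medium 4 of 5 were called lower, where 35.8% of all genes were. The part of stroma and smooth muscle in the MMP2 levels was not tested.

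MMP14 and MMP15 are anchored in the cell membrane, and MMP14 activates proMMP2. MMP14 was at 33.7 to 53.1 CPM in fresh cells, 87.6 to 111 CPM in DMEM/F12 and 57.5 to 81.7 CPM in incubation medium, with no overlap between groups. It rose by 1.27 (SE 0.14, adjusted p = 1.69e-06, edgeR) and 0.71 (SE 0.14, adjusted p = 0.000385) on the log2 scale over fresh cells. MMP15, at 16.2 to 22.9, 65.1 to 95.7 and 32.1 to 45.7 CPM in the same order of groups, did not overlap either. Its rises were 2.09 (adjusted p = 4.04e-08, edgeR) and 1.00 (adjusted p = 6.29e-05). Between the media MMP14 fell by 0.56 (adjusted p = 0.00772) and MMP15 by 1.09 (adjusted p = 0.000129), so both had the group order of MMP7. TIMP1, MMP11 and MMP12 had that order too, and its share over all tested genes was not counted. MMP25, an anchored protease best known from leukocytes, went the other way. It fell from 11.2 ± 2.93 CPM in fresh cells to 2.77 ± 0.362 and 3.06 ± 0.379 CPM in DMEM/F12 and incubation medium (n = 4 each, adjusted p = 1.00e-06 and 1.85e-06, edgeR).

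MMP11, or stromelysin-3, is activated inside the cell by furin. It was at 31.0 ± 3.35 CPM in fresh cells, 79.8 ± 6.37 CPM in DMEM/F12 and 56.8 ± 8.16 CPM in incubation medium (n = 4 each), with no overlap. Its log2 fold changes were 1.37 and 0.87 over fresh cells (adjusted p = 1.05e-07 and 9.07e-06, edgeR) and -0.49 between the media (adjusted p = 0.00433). MMP12, the macrophage elastase, had 3 counts over all fresh cell libraries, 2 of them in replicate 1, against 131 in DMEM/F12 and 53 in incubation medium. Its pooled ratios to fresh cells were 29.1 (95% interval 9.73 to 143, counting error only) and 12.2 (3.96 to 61.2). MMP12 was at or under 3 counts in every fresh cell library and passed the filter through its spheroid libraries alone, so its calls over fresh cells follow in part from the filter. Without fresh cell replicate 1 its fitted log2 differences from fresh cells went from 4.70 to 5.66 and from 3.45 to 4.42. Between the media it fell by 1.25 on the log2 scale (SE 0.34, adjusted p = 0.0142, edgeR), from 4.01 ± 0.660 to 1.67 ± 0.762 CPM (n = 4 each).

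MMP19, a widely expressed basement membrane protease, was at 5.74 to 10.8 CPM in fresh cells, 8.64 to 13.3 CPM in DMEM/F12 and 8.81 to 14.8 CPM in incubation medium, and the groups overlapped. It was called higher than in fresh cells by 0.52 in DMEM/F12 (adjusted p = 0.0489, edgeR) and by 0.62 in incubation medium (adjusted p = 0.0207) on the log2 scale. The first call was lost when any 1 of fresh cell replicates 1, 2 and 3 or DMEM/F12 replicates 2, 3 and 4 was left out (adjusted p 0.0562 to 0.135). The second was lost without fresh cell replicate 1 or 2 or incubation medium replicate 4 (adjusted p 0.0530 to 0.0639). The remaining 7 rows were not tested. MMP13, a collagenase, had 1 count in fresh cells, 36 in DMEM/F12 and 17 in incubation medium. MMP1, MMP8, MMP16, MMP20 and MMP24 had at most 4 counts in any library. MMP27 had 0 counts in all 12 libraries, where the floor of 3 counts is at 0.348 to 0.588 CPM depending on the library.

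**Figure D3:**
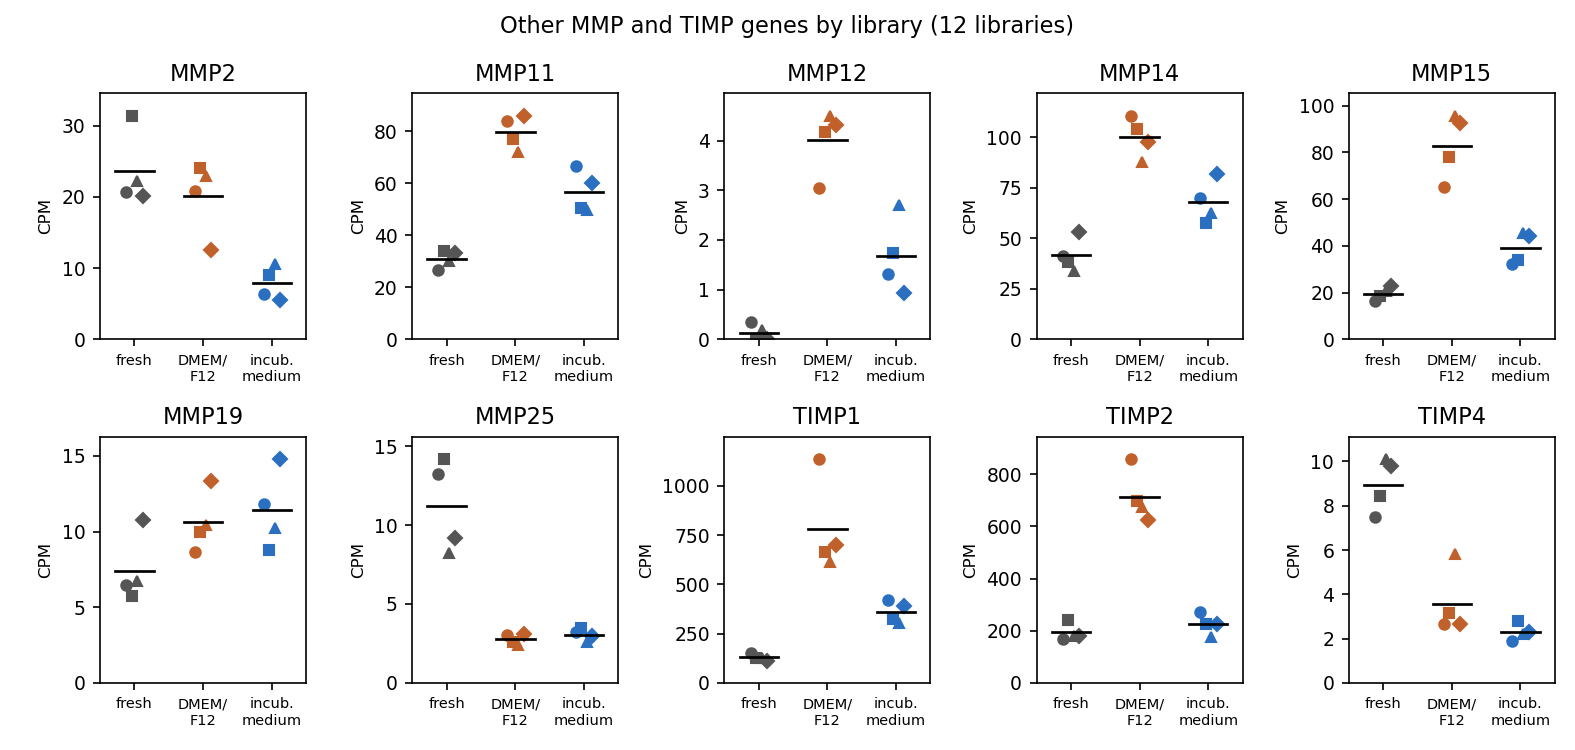
CPM of the 10 tested MMP and TIMP rows other than MMP7 and MMP9 in fresh cells, DMEM/F12 spheroids and incubation medium spheroids, 4 libraries each; each symbol is a library, bars are means, and axes start at 0. MMP14, MMP15, MMP11, MMP12, TIMP1 and TIMP2 are highest in DMEM/F12 without overlap, MMP2 is lowest in incubation medium, and MMP25 and TIMP4 are highest in fresh cells.

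TIMP1 was at 149, 128, 128 and 113 CPM in fresh cells, 1135, 665, 613 and 700.5 CPM in DMEM/F12 and 418, 325, 302 and 388 CPM in incubation medium. The groups did not overlap, and DMEM/F12 replicate 1 stood above the other libraries. TIMP1 rose by 2.59 (SE 0.18, adjusted p = 2.11e-08, edgeR) and 1.47 (SE 0.18, adjusted p = 4.13e-06) on the log2 scale over fresh cells and fell by 1.12 (SE 0.17, adjusted p = 0.000400) between the media. TIMP2, which takes part with MMP14 in proMMP2 activation, was at 169 to 242 CPM in fresh cells and 625 to 858 CPM in DMEM/F12. In incubation medium it was at 175 to 273 CPM, overlapping the fresh cells (log2 fold change 0.22, 95% interval -0.09 to 0.53, adjusted p = 0.181, edgeR). It was called there without fresh cell replicate 2 (0.35, adjusted p = 0.0383) or incubation medium replicate 3 (0.34, adjusted p = 0.0395). TIMP2 rose by 1.88 in DMEM/F12 (adjusted p = 5.75e-08) and fell by 1.66 between the media (adjusted p = 5.19e-06). TIMP4, an inhibitor of narrower tissue range, fell from 8.95 ± 1.2 CPM in fresh cells to 3.57 ± 1.52 and 2.30 ± 0.371 CPM in DMEM/F12 and incubation medium (n = 4 each, adjusted p = 0.000226 and 1.01e-05, edgeR). TIMP3 was not analysed here.

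**Figure D4:**
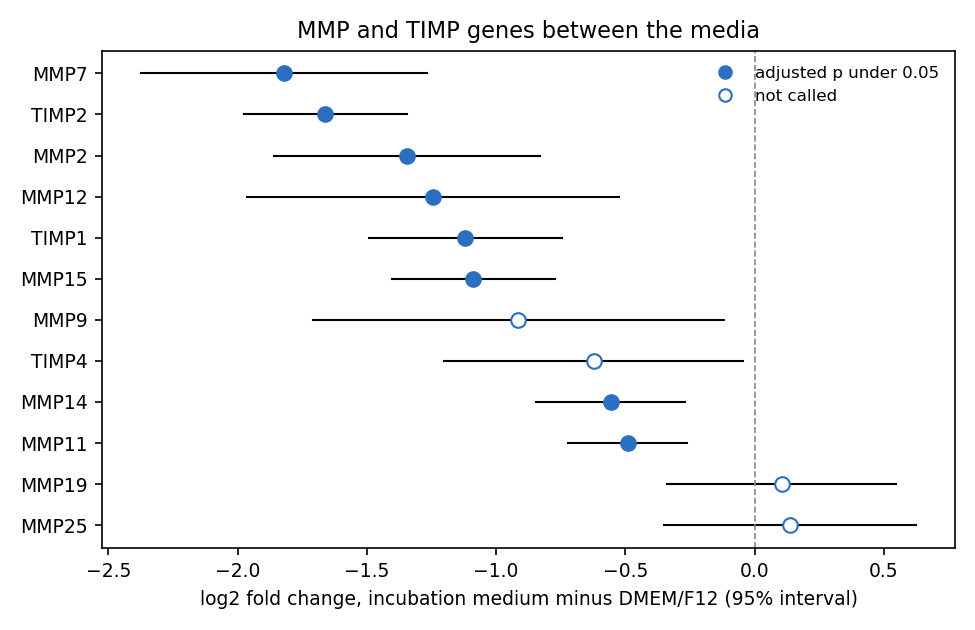
Log2 fold changes of incubation medium minus DMEM/F12 spheroids for the 12 tested MMP and TIMP rows, with 95% intervals from edgeR's fit of 12 libraries; filled points have an adjusted p under 0.05. MMP7 lies at -1.82, MMP9 at -0.91 with an interval of -1.71 to -0.12 and no call, and MMP19 and MMP25 are the points above 0.

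Genes that act with MMP7 and MMP9 were taken from 11 lists by role, in which 70 genes were tested. In DMEM/F12 against fresh cells 40 were called higher and 21 lower (87.1%, against 70.7% of all genes). In incubation medium 37 were higher and 20 lower (81.4%, against 71.7%). Among the higher genes are SERPINB2 and CSF2, at or under 3 counts in every fresh cell library. Both passed the filter through spheroids alone, so their calls follow in part from the filter. Between the media 11 were higher and 22 lower in incubation medium (47.1%, against 25.0%). For the counts of each list, the shares of all tested genes called higher and lower were 35.1% and 35.7% in DMEM/F12, 35.8% and 35.8% in incubation medium, and 12.7% and 12.3% between the media.

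The plasminogen system makes plasmin, which can activate proMMPs. Against fresh cells, 8 of its 9 tested members were called higher in DMEM/F12 (35.1% of all genes were), and 8 in incubation medium (35.8%). The list joins activators with serpins, a family of protease inhibitors, and SERPINE2, SERPINB2, SERPINB5 and SERPINF2 were among the 8 in DMEM/F12. In both media the 8 include SERPINB2, which was at or under 3 counts in every fresh cell library. It passed the filter through spheroids alone, so its calls follow in part from the filter. PLAU, urokinase, rose from 7.62 ± 3.81 CPM in fresh cells to 193 ± 39.0 in DMEM/F12 and 184 ± 33.7 in incubation medium (n = 4 each, adjusted p = 4.76e-09 and 5.38e-09, edgeR). PLAT, the tissue-type activator, was at 434 ± 34.8, 598 ± 62.5 and 2661 ± 96.5 CPM in the same order (n = 4 each). It rose by 2.15 on the log2 scale between the media (adjusted p = 1.16e-08, edgeR), where MMP7 was lower. ANXA2, a surface receptor for plasminogen and PLAT, rose by 1.68 and 1.07 over fresh cells (adjusted p = 4.55e-09 and 2.80e-07). PLAUR was not analysed here.

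Among 9 tested convertases and surface proteases, 6 were called higher and 2 lower in DMEM/F12, and 5 higher and 1 lower in incubation medium. FURIN, the convertase that activates MMP11 and MMP14, rose by 1.11 and 0.67 on the log2 scale (adjusted p = 1.80e-07 and 2.86e-05, edgeR) and fell by 0.45 between the media (adjusted p = 0.00343). ST14, matriptase, rose from 88.8 ± 5.47 CPM to 353 ± 37.5 and 259 ± 25.7 (n = 4 each). TMPRSS2, a serine protease of epithelial surfaces, was at 42.4 ± 14.9 CPM in fresh cells, 216 ± 34.4 in DMEM/F12 and 95.8 ± 15.6 in incubation medium (n = 4 each), the group order of MMP7. It fell by 1.17 between the media (adjusted p = 0.000705, edgeR).

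Of 5 listed inhibitors other than TIMPs 3 were tested. In DMEM/F12 edgeR called 0 of 3, where 70.7% of all genes were called, with 0 at an unadjusted p under 0.05 and 0 called by DESeq2. In incubation medium 1 was called higher and 1 lower, where 71.7% of all genes were called. The higher one was TFPI2, a serine protease inhibitor of the matrix, at 23.3 ± 5.34 and 37.1 ± 7.83 CPM (n = 4 each, adjusted p = 0.0315, edgeR). Its call was lost without fresh cell replicate 1 or 4 or incubation medium replicate 3 or 4 (adjusted p 0.0556 to 0.0951). RECK, a membrane-anchored MMP inhibitor, was low in all groups, at 1.66 ± 0.586, 1.2 ± 0.185 and 1.05 ± 0.114 CPM (n = 4 each, adjusted p = 0.232 and 0.0794 against fresh cells, edgeR). Without fresh cell replicate 1 it was called lower in incubation medium (-0.86, adjusted p = 0.0249). THBS1, a matrix protein that can hinder MMP activation, fell by 0.91 in incubation medium (adjusted p = 0.00290). Of 6 listed surface and secreted partners 3 were tested, with 3 higher in DMEM/F12 and 2 in incubation medium; CD44 and LCN2 were not analysed here. CD151, a tetraspanin described as a partner of proMMP7, rose from 103 ± 9.5 to 252 ± 13.4 and 195 ± 16.9 CPM (n = 4 each, adjusted p = 1.52e-08 and 3.89e-07, edgeR).

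Of 25 listed substrates 11 were tested, with 5 called higher and 5 lower in DMEM/F12 and 3 higher and 5 lower in incubation medium. CDH1, the E-cadherin that MMP7 can shed, was at 399 ± 24.3 CPM in fresh cells, 1212 ± 98.5 in DMEM/F12 and 606 ± 51.0 in incubation medium (n = 4 each). It rose by 1.60 and 0.60 over fresh cells (adjusted p = 1.73e-09 and 1.80e-05, edgeR) and fell by 1.00 between the media (adjusted p = 3.97e-06), the group order of MMP7. SPP1, osteopontin, had another order, at 2991 ± 523, 7499 ± 1852 and 22641 ± 1624 CPM (n = 4 each), and rose by 1.59 between the media (adjusted p = 2.28e-05, edgeR). IGFBP5, a binding protein of insulin-like growth factors, fell from 186 ± 28.5 CPM to 8.76 ± 1.26 and 20.1 ± 11.5 (n = 4 each, adjusted p = 1.17e-08 and 1.06e-07, edgeR).

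AP-1, ETS factors, beta-catenin with TCF, and NF-kappaB are known regulators of MMP promoters. Of 6 tested AP-1 subunits, 2 were called higher and 4 lower in DMEM/F12, and 1 higher and 4 lower in incubation medium. FOS fell from 12074 ± 2326 CPM to 95.3 ± 19.4 and 161 ± 9.16 (n = 4 each, adjusted p = 3.47e-12 and 7.84e-12, edgeR). JUND fell from 3955 ± 1154 to 654 ± 102 and 677 ± 89.1 CPM (n = 4 each, adjusted p = 1.90e-08 and 2.20e-08, edgeR). FOSL1, named after its values were seen, rose from 24.4 ± 15.2 to 82.1 ± 16.1 and 62.1 ± 15.6 CPM (n = 4 each, adjusted p = 0.000295 and 0.00238, edgeR). FOSL2, also named afterwards, rose by 0.75 in DMEM/F12 (adjusted p = 0.000131). The subunits thus moved in both directions.

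Of 4 tested ETS factors 3 were higher and 1 lower in each medium, and between the media 1 was higher and 3 lower (12.7% and 12.3% of all genes were). ETV4 was at 1.20 ± 0.283, 20.9 ± 6.67 and 10.1 ± 2.58 CPM in fresh cells, DMEM/F12 and incubation medium (n = 4 each), and fell by 1.05 between the media (adjusted p = 0.00433, edgeR). ETS1 rose by 3.15 and 2.69 over fresh cells (adjusted p = 1.97e-09 and 8.04e-09). ELF3, an epithelial member, rose by 1.96 and 2.55 over fresh cells and by 0.59 between the media (adjusted p = 0.00425). Of 4 tested genes each for beta-catenin with TCF and for NF-kappaB, 1 was higher and 2 lower in each medium. LEF1 fell by 2.37 and 2.68 and TCF7L2 by 0.85 and 0.88 on the log2 scale. LEF1 was low, at 2.76 CPM in fresh cells, 0.515 in DMEM/F12 and 0.420 in incubation medium. It was at or under 3 counts in 2 of 4 DMEM/F12 and 3 of 4 incubation medium libraries. TCF7, of the same family, rose by 1.84 and 1.21 (adjusted p = 3.23e-07 and 2.27e-05, edgeR) and fell by 0.63 between the media (adjusted p = 0.00925), the group order of MMP7. RELA, an NF-kappaB subunit, rose by 0.66 and 0.43. NFKBIA, an NF-kappaB inhibitor that is also its target, fell by 1.14 in incubation medium (adjusted p = 0.000149, edgeR).

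Of 10 tested cytokines and growth factors that can induce MMPs, 5 were higher and 4 lower in DMEM/F12, and 6 higher and 3 lower in incubation medium. CSF2, a myeloid growth factor, was at or under 3 counts in every fresh cell library, at 48.5 ± 23.3 CPM in DMEM/F12 and at 7.68 ± 1.85 CPM in incubation medium (n = 4 each). It passed the filter through spheroids alone, so its place among the higher genes follows in part from the filter. It fell by 2.65 between the media (adjusted p = 2.93e-05, edgeR). CXCL8, a neutrophil chemokine, ran opposite between the media, at 24.2 ± 21.6, 169 ± 41.6 and 709.8 ± 166 CPM (n = 4 each, rise of 2.07, adjusted p = 0.00172, edgeR). Its rises over fresh cells were 2.79 and 4.86, and 3.62 and 5.69 without fresh cell replicate 1. EREG, a ligand of the EGF receptor, rose by 2.31 and 2.48 (adjusted p = 3.50e-05 and 1.68e-05).

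Among the related ADAM and ADAMTS proteases 6 of 7 tested were called higher in each medium, where 35.1% of all genes were in DMEM/F12 and 35.8% in incubation medium. ADAM8 was at 2.02 ± 1.04 CPM in fresh cells, 52.9 ± 12.5 in DMEM/F12 and 25.5 ± 4.16 in incubation medium (n = 4 each). ADAM9 was at 19.7 ± 2.66, 237 ± 45.6 and 140.0 ± 19.3 CPM (n = 4 each). Both sheddases fell between the media, by 1.05 and 0.76 (adjusted p = 0.00109 and 0.00123, edgeR), and so had the group order of MMP7. The means of ANXA2, FURIN, ST14 and CD151 had that order as well, so it is not particular to the genes singled out. Its share over all tested genes was not counted.

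**Figure D5:**
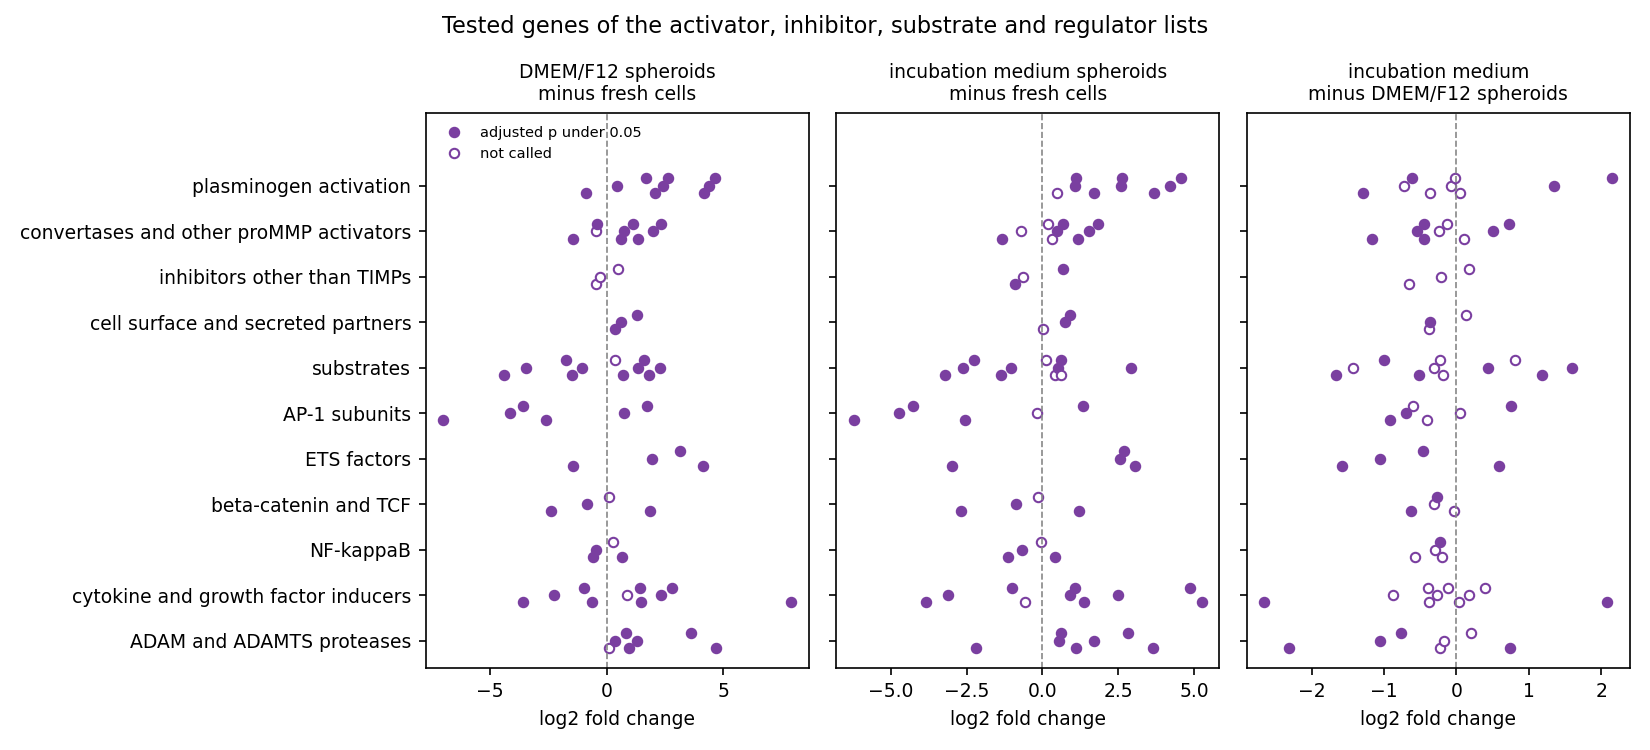
Log2 fold changes of the tested genes of 11 role lists in the 3 comparisons, 1 point per gene, filled where the adjusted p is under 0.05. Plasminogen and ADAM genes lie mostly right of 0 against fresh cells, AP-1 subunits mostly left, and between the media 22 of 70 genes are called lower and 11 higher.

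MMP7 lies in a run of metalloproteinase genes in RefSeq's Sscrofa11.1 gene order, followed by MMP20, MMP27, MMP8, MMP1, MMP3, MMP12 and MMP13. The build of the deposited table is not given in the sources used here, so no coordinates are printed. MMP20, MMP27, MMP8 and MMP1 had at most 4 counts in any library, MMP12 and MMP13 were low with more counts in spheroids, and MMP3 was not analysed here. On the other side of MMP7, TMEM123 rose from 36.1 ± 1.39 CPM in fresh cells to 73.8 ± 16.2 and 81.1 ± 13.0 (n = 4 each, adjusted p = 2.95e-05 and 8.63e-06, edgeR). BIRC3, an apoptosis inhibitor nearby, fell from 105 ± 7.78 CPM to 49.8 ± 8.26 and 46.7 ± 11 (n = 4 each, adjusted p = 1.53e-05 and 6.87e-06, edgeR). MMP9 has no MMP gene among the 8 protein-coding genes on either side. Its neighbour SLC12A5, a potassium-chloride cotransporter, fell by 2.08 and 2.7 on the log2 scale (adjusted p = 0.00179 and 0.000401, edgeR), with -1.40 and -2.03 without fresh cell replicate 3. SLC12A5 was at only 0.799 and 0.510 CPM in spheroids. CTSA, CDH22 and SLC35C2 were called higher in both media, ZSWIM1, PLTP and ELMO2 lower, and PCIF1, NCOA5 and CD40 not at all. CDH22 was at or under 3 counts in every fresh cell library. Of all tested genes 70.7% were called in DMEM/F12 and 71.7% in incubation medium. Neighbours were picked by position after values had been seen.

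Likeness to MMP7 and MMP9 was measured as Pearson's r of log2 CPM across libraries, a description over libraries that share groups. The search took only tested genes with a symbol and a minimum mean CPM, a cut not applied to the values within the family. Over 12 libraries and 5548 such genes the closest to MMP7 were ATP6V1B2 (r 0.995), VWA7, HOMER3, DSE and TTYH3 (0.993). The closest to MMP9 were PWP1 (0.990), SLC25A24, NMT1, BAG1 and ATP6V1B2 (0.988), so ATP6V1B2, a proton pump subunit, is on both lists. Pearson's r does not measure the size of a change. ATP6V1B2 was at 48.4, 112 and 93.7 CPM in fresh cells, DMEM/F12 and incubation medium (means). Over the 8 spheroid libraries and 5379 genes the closest to MMP7 were TAB2 (r 0.980), BORCS5, PRKX, CD24 and CGNL1 (0.972). There the closest to MMP9 were MRPS6 (0.953), EIF4E, SLC37A3, CIAPIN1 and GNAZ (0.912). MMP7 and MMP9 correlated with each other at 0.981 over 12 libraries and at 0.701 over the 8 of spheroids. Both genes were chosen for the step from fresh cells to spheroids, so the values over 12 libraries follow in part from that choice. Within the family, MMP2 was closest to MMP7 over the spheroid libraries (0.966), and MMP19 ran opposite to MMP9 (-0.890).

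Since MMP9 and MMP12 are also made by leukocytes, leukocyte markers were read beside them. Of 10 listed markers of macrophages and other leukocytes 6 had a row, and they summed to 40.4 to 60.0 CPM in fresh cells, 13.3 to 39.0 CPM in DMEM/F12 and 10.3 to 33.4 CPM in incubation medium. Against fresh cells 4 of the 6 were called lower in DMEM/F12 and 5 in incubation medium, where 35.7% and 35.8% of all genes were. CD14 was at 2.66, 3.23 and 4.54 CPM in the 3 groups (adjusted p = 0.491 and 0.0502, edgeR). Of 8 neutrophil markers 7 had a row, with sums of 17.6 to 20.8, 15.8 to 31.7 and 19.6 to 48.4 CPM in the same order. Among them FCGR3A fell from 18.8 CPM in fresh cells to 5.87 in DMEM/F12 and 4.60 in incubation medium (adjusted p = 0.000737 and 0.000181, edgeR). CXCR2 and ELANE were at or under 3 counts in every library. S100A8, S100A9 and S100A12, which epithelium can also make, were at or under 3 counts in every fresh cell library. They were at 4.73, 5.49 and 6.59 CPM in DMEM/F12 and at 7.93, 8.15 and 12.5 CPM in incubation medium (means, n = 4). Endothelial markers summed to 41.6 to 57.4, 136 to 252 and 91.2 to 148 CPM, with VWF at or under 3 counts in every library. Of these CDH5 and KDR rose in both media, while PECAM1 fell from 15.1 CPM to 7.91 and 8.05 (adjusted p = 2.01e-05 and 2.48e-05, edgeR). TEK, which was not tested, was at 1.51 CPM in fresh cells, 0.452 in DMEM/F12 and 0.511 in incubation medium. The part of macrophages, neutrophils and endothelium in the MMP7 and MMP9 levels was not tested.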

How the data were processed

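Oligo-dT primed libraries of preserved cell lysates were tagmented, indexed and amplified, per the labels' protocols. The submitters' processing notes name fastp 0.24.0, STAR 2.7.11, SAMtools 1.22.1 and featureCounts of Subread 2.1.1; genome build and annotation are not given in the sources used here. Per the file headers, the table the authors deposited pairs, for each library, a count (treated as an expected count, since some are fractions of a read) with its CPM. Of 30461 gene rows 13259 have a symbol; 92 spike-in rows were left out.

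Counts were rounded and tested in R 4.3.3 with edgeR 4.0.16 (TMM scaling, low counts filtered per group by filterByExpr with a minimum count of 10, quasi-likelihood F-tests, 1 fit of 12 libraries, Benjamini-Hochberg over 14070 genes, called at an adjusted p under 0.05). Printed CPM use TMM-scaled library sizes; log2 CPM has a prior count of 2. The fit was also run on counts simulated without an effect of the replicate number. That run cannot show how such an effect bears on the calls. Intervals of pooled ratios are exact binomial and, like the floor of 3 counts, cover counting error only; the labels state no molecular identifiers.

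Replicate numbers come from the titles. Same-numbered libraries deviated together in every pair of groups (r 0.196 to 0.516), so a replicate block was an alternative, beside DESeq2 1.42.0, library totals, no filter, unrounded counts, only the groups compared, and leaving out each library. The labels do not say that replicates are separate animals or cultures, so p-values measure the spread between these libraries, which may be technical. The members, lists and rules were chosen with earlier results of these data known. Genes of the role lists printed with values were taken from those a rule selects: the 4 most abundant and 2 most changed called genes of a list, and 9 fixed genes, of which 1 is not reported here. No sequence is printed.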

Additional observations from a re-analysis of the deposited data

Results flagged for a closer look

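In 3 of 36 sets of 4 libraries, the 12 tested family rows in 3 groups, 1 library stood apart by Dixon's criterion, which chance alone meets in about 1 set in 20. TIMP1 in DMEM/F12 replicate 1 was at 1135 CPM, with the other libraries of the group at 613 to 700.5. TIMP2 in fresh cell replicate 2 was at 242 CPM, with the others at 169 to 181. TIMP4 in DMEM/F12 replicate 3 was at 5.82 CPM, with the others at 2.64 to 3.14. No set of MMP7 or MMP9 values met the criterion.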

How the results depend on the processing

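MMP7 kept its direction and its call between the media under the 18 alternatives run, with log2 fold changes from -2.17 to -1.62 (adjusted p at most 0.00134, edgeR and DESeq2). For MMP9 the replicate block gave -0.95 (adjusted p = 0.000174), a call that the fit without it did not make, and leaving out 1 library gave -1.30 to -0.66; the cause was not tested. The block changed no other call among the family rows. Among single genes, MMP19 between the media went from 0.10 to -0.0408 without incubation medium replicate 4, with no call in either case; leaving out 1 library gave -0.0408 to 0.23. The exact permutation p of MMP9 was 0.114 with CPM as deposited. Few counts limit MMP9, MMP12 and MMP13 in fresh cells, where 10, 3 and 1 counts set the size of the ratios.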
